A study of Xenopus laevis with 27 samples.

Results

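mef2c.L, mef2c.S and rbm24.S are 3 of the 42903 genes in the expression tables of a study of hindlimb amputation in the adult frog Xenopus laevis. They were picked by gene name, as regulators of muscle, after earlier results of these data were known. Those results included treatment differences in blastema. Differences of the 3 genes in any comparison of a blastema group are thus given as a description without a test. The test of brain minus stump compares no blastema group, but its fit over all 9 groups also took in the blastema libraries. X. laevis is allotetraploid, and .L and .S mark the homeologous copies of a gene. The study sequenced RNA from limb blastema (the growth at the tip of the cut limb), limb stump and brain, with 3 libraries for each tissue and treatment and 27 libraries in all. The treatments were a wearable silk device that delivered progesterone, the silk device without the hormone as the sham, and no device. The labels give no age, sex or time of sampling, and they do not say whether replicates came from separate frogs, so p-values measure only the spread between these samples.

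MEF2C is a MADS-box transcription factor that works with the myogenic bHLH factors to switch on and maintain genes of the contractile apparatus in skeletal and cardiac muscle. It is also made in neurons, where it is known for its part in neuronal differentiation and synapse number, and in endothelium and B lymphocytes. RBM24 is an RNA-binding protein of striated muscle that controls alternative splicing and the stability of transcripts during muscle differentiation. Limb tissue can thus hold both in muscle, and brain can hold MEF2C in neurons.

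Levels are in FPKM (fragments per kilobase of transcript, scaled to the fragments of the library), a measure per transcript length that can be compared between genes. Differences are of log2(FPKM + 1), from a limma fit across all genes, with its standard error and a p-value adjusted over all genes tested (Benjamini-Hochberg). Depth was low, at 178708 to 3455613 estimated reads a library, with 178708 to 951229 in blastema. In stump it did not overlap between device and no-device libraries, with 302704 to 1681187 reads in device libraries and 2012746 to 3455613 without a device. The estimated share of reads from a single gene, smad4.1.S, did not overlap between device and no-device libraries in either limb tissue. In blastema this share was 2.03% to 40.0% with a device and 0.52% to 1.11% without. In stump it was 0.71% to 31.7% with a device and 0.09% to 0.13% without. Libraries 1 and 3 were near-identical in blastema with progesterone, in stump without a device and in brain without a device. Only 0.325% to 0.528% of genes differed beyond sampling noise. Each pair was counted as 1 sample, which leaves n = 2 in these groups. The library labelled brain silk 3 was as close to brain no-device libraries 1 and 3, with 0.332% and 0.351% of genes different, and was kept in its labelled group. Muscle fibre markers were present in every limb library, and neuron markers summed to 983 to 1475 FPKM in brain, against 0.67 to 105 FPKM in limb libraries, so brain and limb could be told apart by these markers.

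The 3 genes were highest in stump without a device and next highest in blastema without a device. The stump libraries without a device lay above every other library for each of them, and the blastema libraries without a device lay above all lower groups for mef2c.L and rbm24.S. For mef2c.S, 1 stump library with progesterone, at 18.3 FPKM, exceeded the lowest of these blastema libraries, at 16.9 FPKM. mef2c.L averaged 71.3 ± 22.9 FPKM in stump without a device (SD, n = 2) and 33.3 ± 5.10 FPKM in blastema without a device (SD, n = 3). The other groups of mef2c.L ran from 18.8 ± 4.44 FPKM in brain with silk (SD, n = 3) down to 7.22 ± 2.85 FPKM in blastema with silk (SD, n = 3), and neighbours in that order overlapped except the last pair, blastema with progesterone and blastema with silk. mef2c.S had the same groups at the top and the bottom, with 60.6 ± 25.7 FPKM in stump without a device (SD, n = 2), 26.7 ± 11.2 FPKM in blastema without a device (SD, n = 3) and 4.31 ± 3.05 FPKM in blastema with silk (SD, n = 3), its lowest group. rbm24.S spanned a wider range. Its means were 92.3 ± 17.9 FPKM in stump without a device (SD, n = 2), 35.0 ± 4.05 FPKM in blastema without a device (SD, n = 3) and 0.807 ± 0.178 FPKM in brain with progesterone (SD, n = 3), its lowest group. The order of rbm24.S put all 3 brain groups at the bottom, whereas the brain groups of both mef2c copies lay among or above the limb groups with a device.

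**Figure D1:**
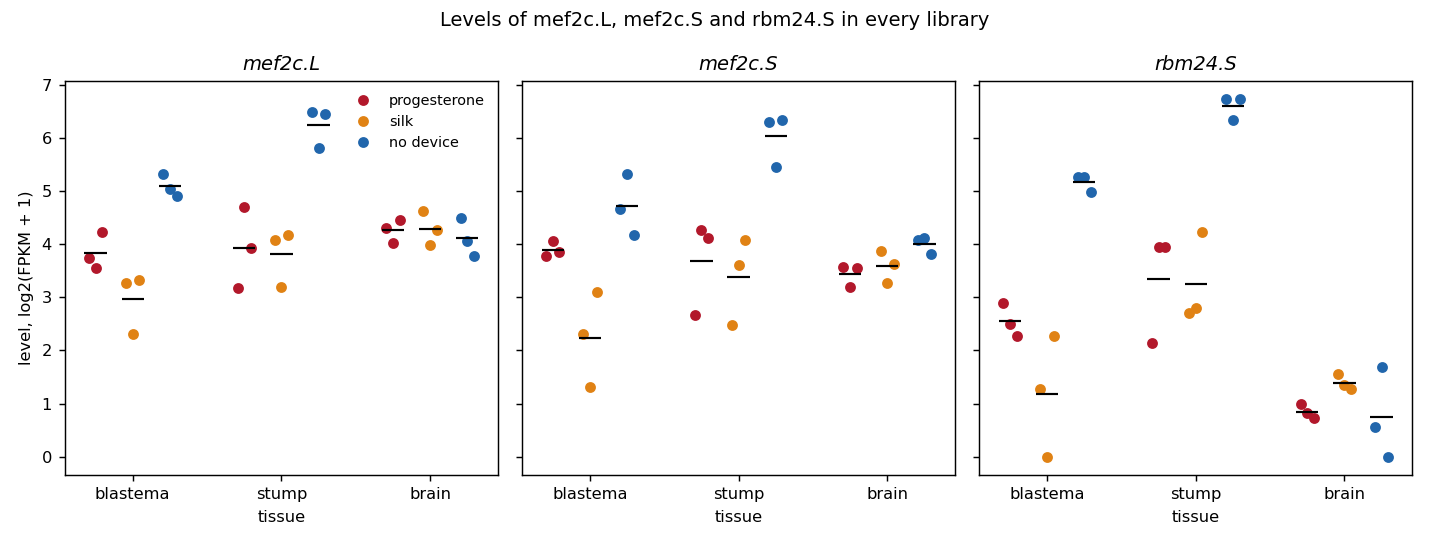
Levels of mef2c.L, mef2c.S and rbm24.S as log2(FPKM + 1), 1 point for each of the 27 libraries, by tissue and treatment, with a line at the mean of the 3 libraries. The no-device libraries of stump and blastema lie above the device libraries of the same tissue for all 3 genes, while in brain the treatments lie close together and rbm24.S is near 0.

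In stump, both devices went with lower levels of all 3 genes, and the device groups could not be told from each other. mef2c.L, the first of the transcription factor copies, had 8.06, 24.9 and 14.2 FPKM with progesterone and 15.8, 8.14 and 17.0 FPKM with silk, against 88.8, 55.0 and 86.2 FPKM without a device. mef2c.S had 5.32, 18.3 and 16.3 FPKM with progesterone and 4.59, 11.1 and 15.9 FPKM with silk, against 77.6, 42.4 and 79.9 FPKM without a device. rbm24.S, the splicing regulator, had 3.39, 14.3 and 14.5 FPKM with progesterone and 5.52, 5.95 and 17.7 FPKM with silk, against 105, 79.7 and 105 FPKM without a device. Every device library lay below every no-device library for each of the 3 genes. Among all genes, 6.85% did so for progesterone and 7.14% for silk. Within the device groups, progesterone library 1 was the lowest for all 3 genes in its group, and silk library 3 was the highest in its group.

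The fitted differences in stump were largest for rbm24.S. For progesterone minus no device they were −3.19 ± 0.74 for rbm24.S (SE, adjusted p = 0.228), −2.21 ± 0.63 for mef2c.L (SE, adjusted p = 0.326) and −2.20 ± 0.71 for mef2c.S (SE, adjusted p = 0.386). For silk minus no device they were −3.29 ± 0.74 for rbm24.S (SE, adjusted p = 0.156), −2.33 ± 0.63 for mef2c.L (SE, adjusted p = 0.188) and −2.49 ± 0.71 for mef2c.S (SE, adjusted p = 0.193). None passed the threshold of 0.05, and 0.0% of the 29972 genes tested by limma were called in either comparison. At an unadjusted p under 0.05 there were 2953 genes for progesterone and 3892 for silk. Both comparisons use the same no-device libraries. For progesterone minus silk, which does not use them, the differences were 0.12 ± 0.57 for mef2c.L, 0.30 ± 0.64 for mef2c.S and 0.10 ± 0.66 for rbm24.S, within their standard errors. The groups overlapped for all 3 genes, where 3.17% of all genes had every progesterone library lower and 3.28% every one higher. The size of the stump differences depended on the scaling. The median difference of all genes was 0.57 for progesterone and 0.52 for silk, and median-of-ratios scaling of the libraries moved these medians by −0.47 and −0.43. Relative to the median of all genes, rbm24.S differed by −3.76 with progesterone and −3.80 with silk, mef2c.L by −2.77 and −2.84, and mef2c.S by −2.77 and −3.01.

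The call for rbm24.S in stump depended on which genes entered the fit. With only genes that had at least 10 estimated reads on average, an alternative chosen after seeing the data, rbm24.S passed the threshold for progesterone (adjusted p = 0.0379) and for silk (adjusted p = 0.0428), while adjusted p was 0.0634 to 0.102 for the mef2c copies. With each library counted as a separate sample, rbm24.S passed in both comparisons and the mef2c copies passed for silk. In the authors' deposited table, whose group means are scaled differently, the log2 fold changes were −4.06 for rbm24.S (q = 5.49e-12), −3.22 for mef2c.L (q = 6.4e-10) and −3.25 for mef2c.S (q = 6.54e-09) with progesterone against no device. With silk against no device the authors' deposited table gave −4.30 for rbm24.S (q = 4.86e-12), −3.74 for mef2c.L (q = 1.27e-11) and −3.61 for mef2c.S (q = 1.15e-09). The authors' deposited table listed 15.3% of genes at a q under 0.05 for progesterone and 26.5% for silk, so the 3 genes were among many. By the authors' p-value rbm24.S, mef2c.L and mef2c.S stood at places 18, 68 and 137 of 39465 genes for progesterone. For silk they stood at places 15, 22 and 95 of 41052. The authors' group means draw on all 3 libraries of a group, while the limma fit averaged near-identical libraries into 1 sample. The authors' q-values also come from their own test on the same libraries, so they are not an independent check.

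In blastema, both devices again went with lower levels, and here the silk group had the lower mean of the devices. The rbm24.S libraries of the devices overlapped. mef2c.L had 12.4, 10.7 and 17.7 FPKM with progesterone and 8.69, 3.94 and 9.03 FPKM with silk, against 38.9, 31.8 and 29.1 FPKM without a device. mef2c.S had 12.7, 15.6 and 13.4 FPKM with progesterone and 3.94, 1.47 and 7.53 FPKM with silk, against 24.2, 38.9 and 16.9 FPKM without a device. rbm24.S had 6.42, 4.68 and 3.81 FPKM with progesterone and 1.41, 0 and 3.84 FPKM with silk, against 37.4, 37.3 and 30.3 FPKM without a device. Every device library lay below the no-device range for each of the 3 genes. That placed all 3 genes among the 8.81% of genes with every progesterone library lower and the 13.2% with every silk library lower than without a device. The genes were chosen with such values known, so nothing is read from these counts.

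The silk values of rbm24.S in blastema rest on about 1, 0 and 2 reads in the 3 libraries, 3 in all, against 136 without a device. From the pooled reads the level with silk was 0.0484 times that without a device (95% exact interval 0.00987 to 0.145, counting error only). This interval is no test, since the gene was chosen with blastema values known. The fitted log2 differences for silk minus no device were −3.98 ± 0.66 for rbm24.S, −2.48 ± 0.64 for mef2c.S and −2.12 ± 0.56 for mef2c.L (SE). For progesterone minus no device they were −2.61 ± 0.74 for rbm24.S, −1.32 ± 0.63 for mef2c.L and −0.78 ± 0.72 for mef2c.S (SE). The median difference of all genes was −0.36 with silk and −0.02 with progesterone. In the authors' deposited table the log2 fold changes of silk against no device were −3.98 for rbm24.S, −2.31 for mef2c.L and −2.34 for mef2c.S, and those of progesterone against no device were −2.69, −1.39 and −0.94 for these genes in that order.

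Between the devices in blastema, both mef2c copies were higher with progesterone than with silk in every library. mef2c.L ran from 10.7 to 17.7 FPKM with progesterone, against 3.94 to 9.03 FPKM with silk, and mef2c.S from 12.7 to 15.6 FPKM, against 1.47 to 7.53 FPKM. Of all genes, 8.23% had every progesterone library above every silk library. rbm24.S ran from 3.81 to 6.42 FPKM with progesterone, against 0 to 3.84 FPKM with silk, and the groups overlapped, since progesterone library 3 was just under silk library 3. Its pooled reads, 24 with progesterone and 3 with silk, gave a ratio of 3.06 with an exact 95% interval of 0.929 to 15.9. That interval covers counting error only. Of the 24 reads, 15 and 7 came from the near-identical progesterone libraries 1 and 3. The fitted differences of progesterone minus silk were 1.70 ± 0.72 for mef2c.S, 1.38 ± 0.74 for rbm24.S and 0.80 ± 0.63 for mef2c.L (SE), and the median of all genes was 0.33. Minus that median the differences were 1.37, 1.05 and 0.475 in that order, the last within its standard error. The authors' deposited table runs the other way round, silk minus progesterone, and gave −1.40 for mef2c.S, −1.29 for rbm24.S and −0.92 for mef2c.L.

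**Figure D2:**
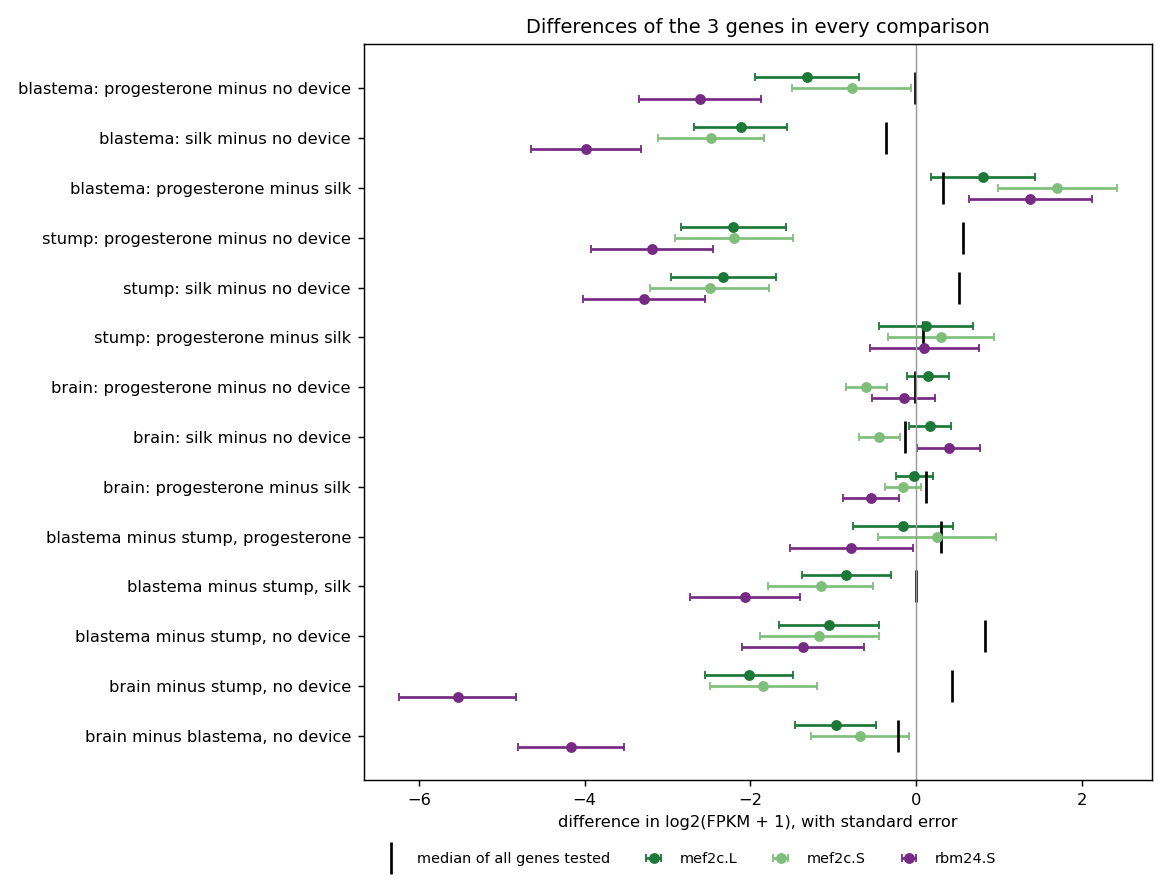
Differences in log2(FPKM + 1) of mef2c.L, mef2c.S and rbm24.S in the 14 comparisons, as points with standard errors, beside the median of all genes tested as a black bar. The 4 comparisons of a limb device group with no device have all 3 genes left of 0, from −0.78 to −3.98, and brain minus stump has rbm24.S farthest left at −5.53.

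In brain the 3 genes split into present and nearly absent. mef2c.L had 18.7, 15.3 and 20.9 FPKM with progesterone and 23.6, 14.7 and 18.1 FPKM with silk, against 21.4, 15.6 and 12.8 FPKM without a device, and all groups overlapped. mef2c.S had 10.9, 8.10 and 10.7 FPKM with progesterone and 13.6, 8.67 and 11.4 FPKM with silk, against 15.8, 16.4 and 13.1 FPKM without a device. Its progesterone libraries all lay below its no-device libraries, as those of 7.28% of genes did, and its silk libraries overlapped them. rbm24.S had 1.00, 0.77 and 0.65 FPKM with progesterone and 1.95, 1.55 and 1.41 FPKM with silk, against 0.47, 2.24 and 0 FPKM without a device. These values stand for 0 to 7 reads a library. Progesterone libraries of rbm24.S all lay below its silk libraries, as in 3.25% of genes.

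No treatment difference of the 3 genes in brain passed the test. mef2c.S differed by −0.60 ± 0.25 for progesterone minus no device (SE, adjusted p = 1) and by −0.45 ± 0.25 for silk minus no device (SE, adjusted p = 0.94). mef2c.L differed by 0.14 ± 0.25 and 0.17 ± 0.25 in these comparisons (SE, adjusted p = 1 and 0.95), and rbm24.S by −0.15 ± 0.38 and 0.39 ± 0.38 (SE, adjusted p = 1 and 0.942). For progesterone minus silk the differences were −0.54 ± 0.34 for rbm24.S (SE, adjusted p = 0.74), −0.16 ± 0.22 for mef2c.S (SE, adjusted p = 0.888) and −0.02 ± 0.22 for mef2c.L (SE, adjusted p = 0.988). Among all genes, limma called 0.0% in each comparison with no device (789 genes for progesterone and 1278 for silk had an unadjusted p under 0.05) and 0.0221% in progesterone minus silk. The authors' deposited table gave q = 1 for each of the 3 genes in each brain comparison. Without silk library 3, the one close to no-device libraries, silk minus no device was 0.18 for mef2c.L, −0.47 for mef2c.S and 0.46 for rbm24.S, and progesterone minus silk was −0.04, −0.14 and −0.61 for these genes in that order. The standard errors of the mef2c copies were 0.22 to 0.25 in brain and 0.57 to 0.71 in stump.

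Between tissues without a device, rbm24.S was lower in brain than in either limb tissue. It averaged 1.24 ± 1.42 FPKM in brain (SD, n = 2), against 92.3 ± 17.9 FPKM in stump (SD, n = 2) and 35.0 ± 4.05 FPKM in blastema (SD, n = 3). Brain minus stump was −5.53 ± 0.70 (SE, adjusted p = 9.63e-06). Brain minus blastema, a description since it uses the blastema libraries, was −4.16 ± 0.64 (SE). mef2c.L was also lower in brain than in stump, at 16.4 ± 1.03 FPKM (SD, n = 2) against 71.3 ± 22.9 FPKM (SD, n = 2), by −2.02 ± 0.53 (SE, adjusted p = 0.00964). mef2c.S differed by −1.84 ± 0.65 in brain minus stump (SE, adjusted p = 0.0546), just short of the threshold. The limma fit behind brain minus stump held all 9 groups, so its spread and gene filter drew on blastema libraries too. Without blastema silk library 2 or 3, mef2c.S passed (adjusted p = 0.0372 and 0.0405). Leaving out any other blastema library did not change a call of the 3 genes there. The call for mef2c.L was lost without brain library 2 (adjusted p = 0.0741), without brain libraries 1 and 3 (adjusted p = 0.055) and without stump libraries 1 and 3 (adjusted p = 0.13). mef2c.S passed with the filter of 10 estimated reads (adjusted p = 0.0168) and with median-of-ratios scaling, which put its difference at −2.93 (adjusted p = 0.00444) and that of mef2c.L at −3.11. Brain minus blastema was −0.97 ± 0.49 for mef2c.L and −0.68 ± 0.59 for mef2c.S (SE), given without a test. The test called 17.3% of genes in brain minus stump (15.2% higher and 2.19% lower) and 15.8% in brain minus blastema. Every no-device brain library lay below every no-device stump and blastema library for all 3 genes, as in 12.5% and 27.8% of all genes.

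Blastema minus stump also uses the blastema libraries, so the differences of the 3 genes are given here without a test. Without a device it was −1.37 ± 0.74 for rbm24.S, −1.17 ± 0.71 for mef2c.S and −1.05 ± 0.60 for mef2c.L (SE). Among all genes, 0.0555% were called there. The median of all genes was 0.83 in that comparison, and the differences minus that median ran from −2.20 for rbm24.S to −1.88 for mef2c.L. With median-of-ratios scaling, blastema minus stump was −2.37 for rbm24.S, −2.16 for mef2c.S and −2.05 for mef2c.L. All 3 genes had every blastema library below every stump library without a device, as 6.06% of genes did. Under silk, rbm24.S differed by −2.06 ± 0.66 (SE), with every blastema library lower, as in 4.69% of genes. Both mef2c copies overlapped there, at −0.84 ± 0.54 for mef2c.L and −1.15 ± 0.64 for mef2c.S (SE). In the silk comparison 0.0338% of genes were called. Under progesterone all 3 genes overlapped between the tissues, their differences ran from −0.78 to 0.25 and the share of genes called was 0.0%, while 3337 genes had an unadjusted p under 0.05.

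The 3 genes moved across the limb libraries with the markers of muscle fibres. The summed level of 12 gene copies of 8 fibre markers, such as skeletal muscle actin, creatine kinase and fast troponins, was 1602 to 2702 FPKM in blastema with progesterone and 623 to 1787 FPKM with silk, against 11278 to 22456 FPKM without a device. In stump it was 2840 to 19255 FPKM with progesterone and 3773 to 8375 FPKM with silk, against 35134 to 57127 FPKM without a device. None of the 12 copies was at 0 throughout a group. In bulk RNA, fewer muscle cells and less of these transcripts per muscle cell cannot be told apart. Red blood cell markers were higher in every device library of stump. Of all genes, 33.7% with progesterone and 27.3% with silk were. The sums of neuron and of myeloid leukocyte markers were too, so this was not particular to red blood cells. Those of cartilage and epidermis overlapped with no device. The red blood cell markers are given as an example. These summed to 29089 to 90678 FPKM in stump with progesterone and 22616 to 69464 FPKM with silk, against 3559 to 5325 FPKM without a device. In blastema, where progesterone overlapped with no device, they summed to 3013 to 63088 FPKM with progesterone and 15812 to 51378 FPKM with silk, against 4197 to 14158 FPKM without a device. The part of these cell markers in the values of the 3 genes was not tested.

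Levels were also set against fibre markers, whose sum was lower with either device in both limb tissues. In blastema the summed mef2c copies were 9.49 to 16.4 FPKM for each 1000 FPKM of fibre markers with progesterone. They were 8.68 to 12.7 with silk, against 2.81 to 4.08 without a device, and neither device range overlapped the no-device range. Of all genes, 57.9% were higher per fibre marker in every progesterone library and 48.6% in every silk library, and 21 of 52 and 16 of 51 contractile and energy genes of the fibre were. rbm24.S was 1.41 to 2.92 FPKM for each 1000 FPKM of fibre markers with progesterone and 0 to 2.15 with silk, against 1.66 to 2.69 without a device, so that each device group overlapped with no device. The genes were chosen with blastema values known, so nothing is read from these ratios in blastema. In stump the mef2c sum overlapped between groups and rbm24.S did not with progesterone. The mef2c sum was 2.24 to 4.71 with progesterone and 2.68 to 5.40 with silk, against 2.77 to 2.99 without a device. rbm24.S was 0.744 to 1.60 with progesterone and 0.828 to 2.12 with silk, against 1.84 to 2.27 without a device. Of all genes, 0.37% were lower per fibre marker in every progesterone library of stump than without a device. A lower fibre sum raises this ratio for every gene, so the share over all genes is not a measure for muscle genes. How many contractile and energy genes of the fibre were lower was not counted. The rbm24.S value of progesterone library 1 rests on 4 reads.

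Brain showed mef2c at a level that did not go with fibre markers. The 12 fibre marker copies together summed to 26.6 to 255 FPKM in brain libraries, while the mef2c copies summed to 23.4 to 37.2 FPKM. Brain silk library 1 held the highest fibre sum, with 55.6 FPKM of the skeletal actin gene acta1.L and 35.2 FPKM of the creatine kinase gene ckm.S. In that library mef2c.L was 23.6 FPKM, the highest of the brain libraries, and rbm24.S was 1.95 FPKM. Heart markers, another source of both proteins, summed to at most 9.60 FPKM in brain and 38.6 FPKM in limb libraries. Endothelium markers summed to 13.04 to 19.6 FPKM in brain and 21.8 to 131 FPKM in limb libraries. In stump they were 88.1 to 131 FPKM with progesterone and 51.3 to 125 FPKM with silk, against 43.9 to 54.7 FPKM without a device. In blastema both device groups overlapped with no device. B lymphocyte markers summed to at most 3.70 FPKM in brain and 14.4 FPKM in limb libraries. The part of these cell types in the values was not tested.

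**Figure D3:**
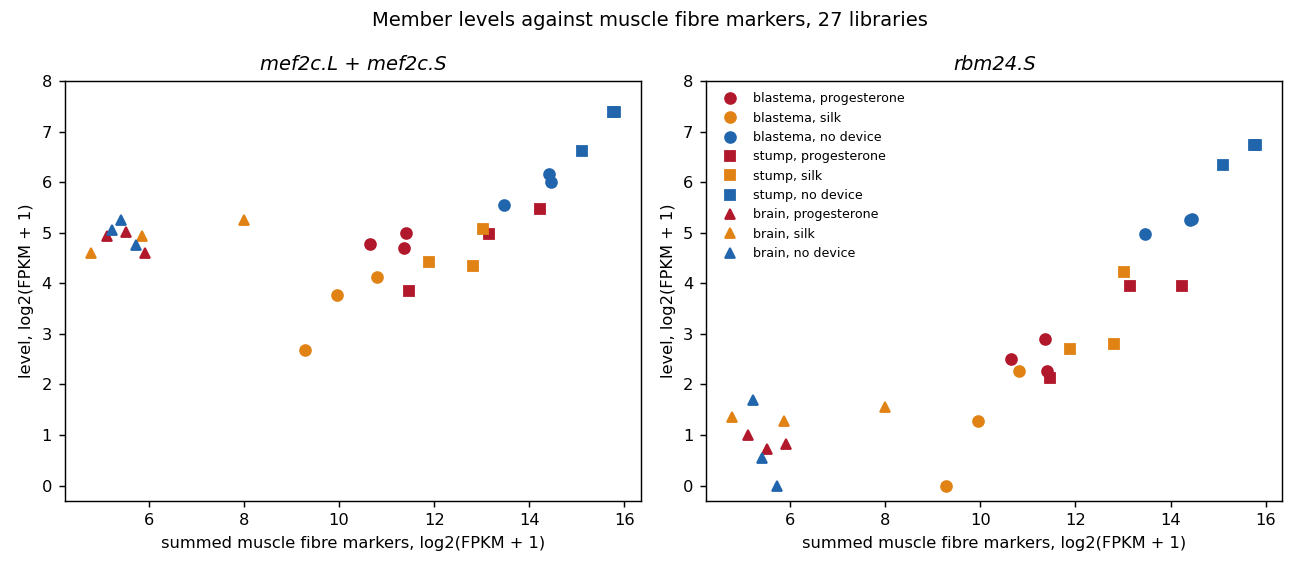
Levels of the summed mef2c copies and of rbm24.S against the summed muscle fibre markers, both as log2(FPKM + 1), 1 point for each of the 27 libraries, with tissue by shape and treatment by colour. In limb libraries both are higher where the fibre sum is higher, with rbm24.S down to 0 in 1 blastema silk library, whereas the brain libraries hold 23.4 to 37.2 FPKM of mef2c at a low fibre sum.

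Likeness across libraries was measured as Pearson's r of log2(FPKM + 1), as a description without a test, since the libraries share tissue, treatment and depth and some are near-identical. Of 32589 genes compared, only the 17760 with a gene symbol were ranked, so genes without one could not appear. Over the 27 libraries rbm24.S was most like ldb3.S (r = 0.96), pdlim3.S (r = 0.96), klhl41.L (r = 0.95), its homeolog rbm24.L (r = 0.94) and mybph.S (r = 0.94). LDB3 and PDLIM3 are PDZ-LIM proteins of the muscle Z-disc, KLHL41 is a sarcomere-associated kelch protein and MYBPH a myosin-binding protein. mef2c.L was most like idh2.L (r = 0.91), mef2c.S (r = 0.90), atp5b.S (r = 0.89), tuba4b.L (r = 0.89) and tpi1.L (r = 0.89). mef2c.S was most like mef2c.L (r = 0.90), eef1a2.S (r = 0.89), pbxip1.S (r = 0.89), slc25a11.L (r = 0.89) and gapdh.S (r = 0.89). IDH2, ATP5B and SLC25A11 act in mitochondria, TPI1 and GAPDH in glycolysis, and EEF1A2 is the translation elongation factor form of muscle and neurons. Over all 27 libraries rbm24.S had r = 0.75 with mef2c.L and 0.79 with mef2c.S. Within the 18 limb libraries these were 0.95 and 0.94, and rbm24.S had r = 0.97 with acta1.L.

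The mef2c homeologs had levels of the same order. mef2c.L made up 40.5% to 77.5% of the mef2c sum in limb libraries and 48.8% to 66.2% in brain libraries. Its share was 63.2% to 66.2% in brain with progesterone and 61.5% to 63.4% with silk, against 48.8% to 57.5% without a device. Silk library 3, at 61.5%, was the one close to no-device libraries 1 and 3, at 57.5% and 49.4%. How often other homeolog pairs had such ranges was not counted, so nothing is read from them. Reads of 40 nt from similar stretches of homeologs can be assigned to either copy, so shares between copies are uncertain. rbm24.L, the homeolog of rbm24.S that was not among the genes chosen, averaged less than rbm24.S in every limb group and more in every brain group. Single libraries went the other way. In brain, rbm24.S was above rbm24.L in silk libraries 2 and 3, at 1.55 against 0.54 FPKM and 1.41 against 0.90 FPKM. In limb, it was below rbm24.L in blastema progesterone library 3 and stump silk library 1. These values rest on few reads. rbm24.L had 2.66 to 9.82 FPKM in stump with progesterone and 3.76 to 8.98 FPKM with silk, against 18.6 to 38.9 FPKM without a device. In blastema it had 2.45 to 5.73 FPKM with progesterone and 0 to 2.01 FPKM with silk, against 9.79 to 20.7 FPKM without a device.

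The other MEF2 copies differed by at most 0.46 from 0 in stump. mef2a and mef2d, the paralogs that are made in many tissues, had 4 copies in the tables. mef2d.L had 11.6, 14.2 and 19.5 FPKM in stump with progesterone and 11.3, 12.1 and 11.8 FPKM with silk, against 8.54, 14.0 and 10.0 FPKM without a device. mef2a.S had 9.47, 11.3 and 12.2 FPKM with progesterone and 8.64, 10.4 and 8.75 FPKM with silk, against 9.28, 6.85 and 7.87 FPKM without a device. For progesterone minus no device in stump, 3 of the 4 copies were above 0 and 1 below, with a median of 0.32 against 0.57 for all genes. For silk, 4 of 4 were above 0, with a median of 0.17 against 0.52 for all genes. None was called. Of all genes tested, 23.2% were below 0 with progesterone and 28.5% with silk in stump, and 50.9% and 68.2% in blastema. Counts above 0 in stump depend on the scaling, since median-of-ratios scaling moved the median of all genes by −0.47 and −0.43 there. In blastema 4 of 4 were below 0 with either device, with medians of −0.44 for progesterone and −0.89 for silk beside −0.02 and −0.36 for all genes. The limma test called 0.0% of genes in blastema with either device, and 1378 genes for progesterone and 2859 for silk had an unadjusted p under 0.05. In brain mef2a.L, mef2d.L and mef2c.S lay side by side without a device, at means of 11.8, 15.7 and 15.1 FPKM over 3 libraries.

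Among 14 other copies of RNA-binding proteins that act in muscle or resemble RBM24, the difference from no device in stump was lowest for rbm24.L and highest for rbm38.L with either device. RBM38 is the closest paralog of RBM24. rbm38.L had 19.2, 30.9 and 9.18 FPKM with progesterone and 17.4, 14.7 and 24.2 FPKM with silk, against 2.39, 2.24 and 1.80 FPKM without a device. Its differences were 2.56 ± 0.61 for progesterone (SE, adjusted p = 0.236) and 2.61 ± 0.61 for silk (SE, adjusted p = 0.161), neither past the threshold. rbm38.S had differences of 1.26 ± 0.62 and 1.74 ± 0.62 in these comparisons (SE, adjusted p = 0.526 and 0.268). Of the 14 copies 10 were above 0 and 4 below with either device in stump, where 23.2% and 28.5% of all genes were below 0. Medians there were 0.46 for progesterone and 0.24 for silk beside 0.57 and 0.52 for all genes, and none was called. In blastema 8 of 14 were below 0 with progesterone and 10 of 14 with silk, where 50.9% and 68.2% of all genes were. The medians were −0.13 and −0.64, beside −0.02 and −0.36 for all genes. In brain minus stump without a device, where 15.2% of all genes were called higher and 2.19% lower, 6 copies were called higher, among them celf2.L at 4.86 ± 0.54 (SE, adjusted p = 2.69e-06), and rbm24.L was the 1 called lower, at −3.41 ± 0.72 (SE, adjusted p = 0.00167).

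**Figure D4:**
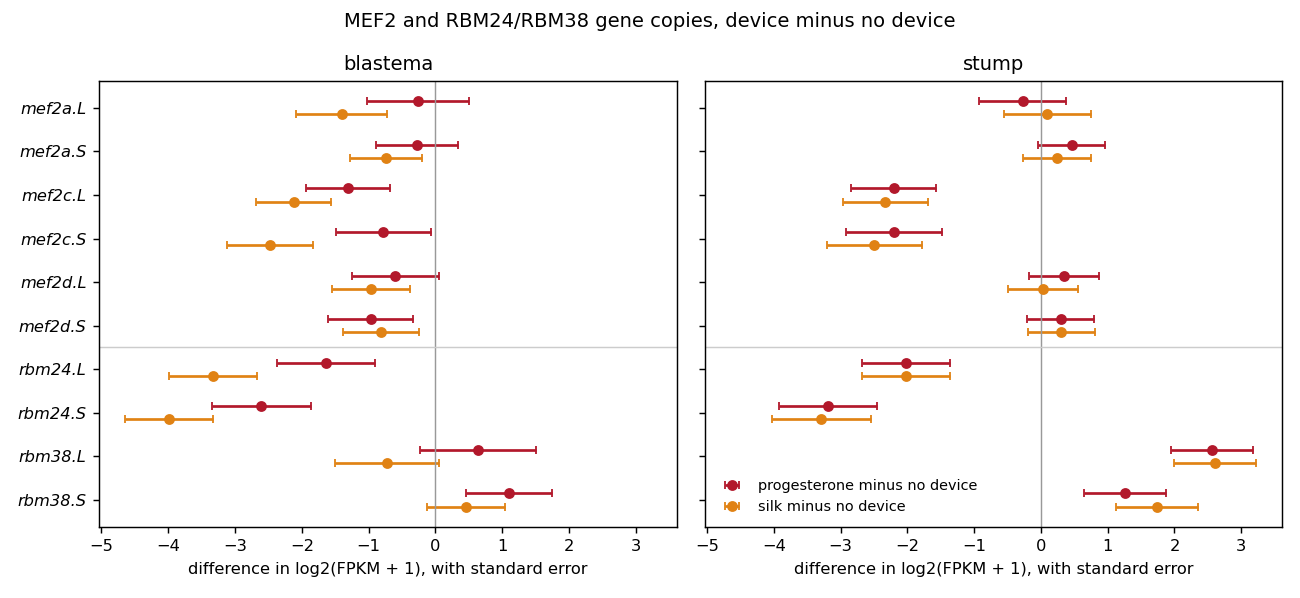
Differences in log2(FPKM + 1) of the MEF2 copies and of the rbm24 and rbm38 copies for progesterone minus no device and silk minus no device, in blastema and stump, with standard errors. In stump the mef2c and rbm24 copies lie between −2.02 and −3.29, the mef2a and mef2d copies within 0.46 of 0, and the rbm38 copies between 1.26 and 2.61.

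The myogenic bHLH factors, the partners of MEF2C, gave no called difference between treatments. myog.L, which drives terminal differentiation, had 4.64, 2.27 and 7.77 FPKM in stump with progesterone and 0, 1.93 and 10.1 FPKM with silk, against 29.1, 10.6 and 21.7 FPKM without a device. Its differences were −1.68 ± 0.93 and −2.46 ± 0.93 (SE, adjusted p = 0.552 and 0.299). myod1.S, a factor of muscle commitment, had 18.7, 31.6 and 24.5 FPKM in stump with progesterone and 16.4, 16.2 and 11.4 FPKM with silk, against 31.6, 30.3 and 28.2 FPKM without a device. Of 12 copies in the list, which also holds the ID inhibitors and musculin, 6 were below 0 with progesterone and 8 with silk in stump, where 23.2% and 28.5% of all genes were. The list medians were 0.15 and −0.30, beside 0.57 and 0.52 for all genes. In blastema 6 of 12 were below 0 with progesterone and 11 of 12 with silk, where 50.9% and 68.2% of all genes were. The list medians there were −0.34 and −1.29, beside −0.02 and −0.36 for all genes. In brain minus stump, where 2.19% of all genes were called lower and 15.2% higher, 5 copies were called lower, among them myod1.L at −4.10 ± 0.60 (SE, adjusted p = 4.43e-05) and myf6.S at −4.89 ± 0.75 (SE, adjusted p = 7.39e-05), and 1 was called higher, the inhibitor id2.L at 2.07 ± 0.55 (SE, adjusted p = 0.0102).

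Contractile and energy genes of the fibre, many of them MEF2 targets, had the lowest medians of the muscle lists in stump and blastema. Of 52 copies tested in stump, 49 were below 0 with progesterone and 48 with silk, at medians of −2.28 and −2.26 beside 0.57 and 0.52 for all genes, and none was called. In blastema 48 and 50 of 53 were below 0, at medians of −1.83 and −2.90 beside −0.02 and −0.36 for all genes. There 50.9% of all genes were below 0 with progesterone and 68.2% with silk. None of the 53 was called, where limma called 0.0% of all genes, as it did in stump. The actin gene acta1.L, which MEF2 factors help to switch on, differed in stump by −3.13 ± 0.94 with progesterone and −3.40 ± 0.94 with silk (SE, adjusted p = 0.353 and 0.19). Of the fusion and differentiation regulators, 13 of 25 copies were below 0 in stump for progesterone and 14 of 25 for silk, where 23.2% and 28.5% of all genes were. Their medians there were −0.34 and −0.29, beside 0.57 and 0.52 for all genes. In blastema 23 and 24 of these 25 were below 0, at medians of −0.95 and −1.10 beside −0.02 and −0.36 for all genes. In stump with progesterone klhl41.L, the kelch gene named above, was among their lowest at −3.24 ± 0.76, and tead4.L, a transcription factor of the Hippo pathway, was the highest at 1.10 ± 0.60 (SE, adjusted p = 0.236 and 0.549).

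Genes that act on MEF2 proteins, such as class II histone deacetylases that repress them and calcineurin and CaM kinases that release them, had medians near that of all genes in stump. Of 31 copies, 8 were below 0 with progesterone and 9 with silk in stump, where 23.2% and 28.5% of all genes were. The medians were 0.60 and 0.39, beside 0.57 and 0.52 for all genes. sik1.S, a kinase of class II histone deacetylases, was the highest of them, at 3.04 ± 0.59 with progesterone and 2.69 ± 0.59 with silk (SE, adjusted p = 0.172 and 0.154). hdac5.L, a repressor of MEF2, stood next with progesterone at 1.79 ± 0.52 (SE, adjusted p = 0.326). In brain minus stump 17 of the 31 copies were called higher and 1 lower, beside 15.2% and 2.19% of all genes, led by the neuronal kinase gene camk2a.S at 6.13 ± 0.65 (SE, adjusted p = 1.6e-06). Muscle progenitor factors such as PAX3 and PAX7 had 4 of 18 copies below 0 in stump with progesterone and 9 of 18 with silk. Their medians were 0.26 and 0.01, beside 0.57 and 0.52 for all genes, and none was called. In blastema 5 of 20 were below 0 with progesterone and 13 of 20 with silk, where 50.9% and 68.2% of all genes were. The medians there were 0.24 and −0.41, beside −0.02 and −0.36 for all genes.

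The 3 genes were also low in the device libraries where the share of smad4.1.S was small. The 2 blastema libraries with a device and a share under 5%, which are the near-identical progesterone libraries 1 and 3, had 12.4 to 17.7 FPKM of mef2c.L, 12.7 to 13.4 FPKM of mef2c.S and 3.81 to 6.42 FPKM of rbm24.S, all under the no-device range. The 3 such stump libraries had 14.2 to 24.9 FPKM of mef2c.L, 15.9 to 18.3 FPKM of mef2c.S and 14.3 to 17.7 FPKM of rbm24.S, also under the no-device range. Their share of smad4.1.S, 0.71% to 2.07%, was still above the 0.09% to 0.13% without a device. The part of this share in the values was not tested. The mean transcript length implied by the deposited values was 3507 bases with progesterone and 2920 bases with silk for mef2c.L in blastema, against 4121 bases without a device. In stump it was 4045 bases with progesterone and 3419 bases with silk, against 4093 bases without a device. It varied less for mef2c.S, from 2782 to 2950 bases over the 9 groups, and for rbm24.S, from 2360 to 2463 bases. The lengths enter FPKM as a divisor, and those of mef2c.L come from 22 reads in blastema with silk and 79 in stump with silk.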

How the data were processed

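RNA from 27 libraries of adult X. laevis was analysed, in 9 groups of 3. Per the labels' protocols, 1 µg of total RNA was depleted of ribosomal RNA, amplified for 10 cycles and sequenced as 40 nt reads. Tools named in the submitters' processing notes are edgeR, RSEM, STAR, Trimmomatic and FastQC, and the genome build is not given in the sources used here. The authors deposited 9 tables, 1 for each comparison within a tissue, with a level per gene and library that was taken as FPKM from the values, since level times estimated length summed to nearly the same total in every library. The deposited tables also hold a group mean signal on a CPM-like scale, the authors' log2 fold changes, and their p-value and q-value columns. Of the 42903 genes, 12143 have no name.

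The depth of each library was estimated from the step between low values, and is counted in reads that the steps of about 1 read imply. Levels were tested as log2(FPKM + 1), with a pseudocount of 1, with limma 3.58.1 in R 4.3.3, on genes that reached an FPKM of 1 in 3 or more samples, with Benjamini-Hochberg adjustment over all genes and a threshold of 0.05. Treatments were fitted within a tissue, blastema minus stump over the 6 limb groups and brain contrasts over all 9 groups. Libraries of a group with under 1% of genes different in a chi-square test of estimated reads were averaged. Other steps used Python 3.11.15, numpy 2.4.6 and pandas 2.3.3, and the fit was tested on simulated data. The simulation counted every library as a separate sample, unlike the reported fits, so it does not cover the groups with averaged libraries. Exact 95% intervals cover counting error only. No count model was run, since no table holds counts, although the design allowed for one.

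The genes and all gene lists were chosen with earlier results of these data known. Genes were named by rule: the 3 genes, copies of the MEF2, RBM24 and myogenic bHLH lists, the 3 highest and 3 lowest of the lists of progenitor factors, fusion regulators and MEF2 regulators, a few fibre genes, and the 5 genes with a symbol most like each of the 3 by Pearson's r. smad4.1.S and rbm24.L are given as checks. Alternatives were other pseudocounts, no filter, median-of-ratios scaling, separate libraries, a replicate block, and each library or near-identical pair left out. Added after seeing the data were a filter of 10 estimated reads on average and library totals without smad4.1.S.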

Additional observations from a re-analysis of the deposited data

How the results depend on the processing

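In the limb comparisons of a device with no device, the differences of the 3 genes were negative under every alternative. They ran from −4.53 to −0.48 over 120 values with 1 library, or both near-identical libraries of a group, left out. Each value is 1 gene in 1 comparison under 1 setting. Some of the libraries left out belong to the treatment outside the comparison, which cannot change the difference. Over 96 such values under other settings they ran from −5.38 to −0.57. The values of the 3 genes below in comparisons that use blastema are a description, with no test. The genes were chosen with blastema values known. Low depth limits rbm24.S, which had 3 reads in blastema with silk and 9 to 12 reads in each brain group. The causes of the changes below were not tested.

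With every library counted as a separate sample, limma called 4 genes in blastema for progesterone minus no device and 79 for silk minus no device, 302, 916 and 9 in stump for progesterone minus no device, silk minus no device and progesterone minus silk, and 2 and 5 in brain for progesterone and silk minus no device. It called 5, 32 and 1479 in blastema minus stump with progesterone, silk and no device, 11572 in brain minus stump and 10815 in brain minus blastema. Under this setting rbm24.S was −3.98 in blastema with silk, −3.26 in stump with progesterone and −3.35 in stump with silk, mef2c.L and mef2c.S were −2.44 and −2.64 in stump with silk, mef2c.S was −2.02 in brain minus stump, and rbm24.S was 0.10 in brain with progesterone.

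With a replicate block on separate libraries, 132 and 904 genes were called in stump for progesterone and silk, 0 in brain for progesterone minus silk (6 in the reported fit), 907 in blastema minus stump without a device, 11362 in brain minus stump and 10438 in brain minus blastema. The block left rbm24.S at −3.26 and −3.35 and mef2c.S at −2.64 in stump past the threshold, mef2c.S at −2.02 in brain minus stump, and rbm24.S at 0.10 in brain with progesterone. Same-numbered libraries correlated from −0.18 to 0.30 and exceeded 0.1 in every pair for 1 of 9 pairs of groups, so the numbers were not taken as pairing.

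With a pseudocount of 0.1 the calls were 288 for silk in blastema, 27 for silk and 132 for progesterone minus silk in stump, 6, 35 and 62 in brain for progesterone, silk and progesterone minus silk, 10, 73 and 84 in blastema minus stump with progesterone, silk and no device, and 3087 in brain minus blastema, and rbm24.S was 0.0161 in brain with progesterone. With a pseudocount of 5 they were 117 for silk in blastema, 81 for progesterone in stump, 0 for progesterone minus silk in brain, and 1, 6 and 13 in blastema minus stump, with rbm24.S at −2.60 in blastema with silk and mef2c.S at −1.63 in brain minus stump. Median-of-ratios scaling left 0 calls in blastema minus stump without a device, put mef2c.S at −2.93 in brain minus stump, and mef2c.L at −0.0302 and rbm24.S at −0.0375 for progesterone minus silk in stump. Without smad4.1.S in the totals these were −0.0646 and −0.0836, with 32 and 0 calls in blastema minus stump with silk and no device. The filter of 10 reads gave 136 calls for silk in blastema, 240 and 158 in stump, 1 and 1 in brain for silk and progesterone minus silk, and 469 in blastema minus stump without a device. With it mef2c.L was −2.12 and rbm24.S −3.98 in blastema with silk. It put rbm24.S at −3.19 and −3.29 in stump and mef2c.S at −1.84 in brain minus stump past the threshold, and removed rbm24.S from the brain fit.

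With a library left out, calls ran from 0 to 1 for progesterone, 0 to 39 for silk and 0 to 1 for progesterone minus silk in blastema, 0 to 116 for silk and 0 to 3 for progesterone minus silk in stump, and 0 to 4, 0 to 26 and 0 to 72 in brain for progesterone, silk and progesterone minus silk. They ran from 0 to 508, 2 to 31 and 0 to 233 in blastema minus stump with progesterone, silk and no device, from 4226 to 8168 in brain minus stump and from 2334 to 7846 in brain minus blastema. mef2c.L ran from −2.35 to −1.69 and mef2c.S from −2.28 to −1.40 in brain minus stump, mef2c.L from −0.54 to 0.22 and mef2c.S from −0.26 to 0.55 in blastema minus stump with progesterone. In stump, progesterone minus silk ran from −0.26 to 0.50 for mef2c.L, −0.16 to 0.81 for mef2c.S and −0.21 to 0.70 for rbm24.S. In brain, mef2c.L ran from −0.012 to 0.34 for progesterone, 0.00 to 0.36 for silk and −0.18 to 0.14 for progesterone minus silk, and rbm24.S from −0.85 to 0.54 for progesterone and −0.30 to 1.09 for silk.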
